A study of Bos taurus with 20 samples.

Results

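The miR-130, miR-301 and miR-454 family was followed in spermatozoa of Holstein-Friesian bulls (Bos taurus). Its members were taken by name, as bta-miR-130a, bta-miR-130b, bta-miR-301a, bta-miR-301b and bta-miR-454. All 5 members were present among the 1029 mature miRNAs of the count table. Small RNA was sequenced from frozen-thawed semen of 20 mature bulls used for artificial insemination, with 1 library per bull. Of these, 10 bulls were of high fertility (HF) and 10 of low fertility (LF), as ranked by an adjusted model of their field inseminations. All bulls were untreated and of the same breed, and straws of several ejaculates were pooled for each bull before somatic cells were lysed. A value therefore stands for a bull and not for an ejaculate, and how much ejaculates of the same bull differ was not measured here.

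A miRNA guides a silencing complex to messenger RNAs through its seed, a short stretch near its start that pairs with the target. The 5 members share a seed and can therefore bind many of the same messenger RNAs. Known targets of the family include receptors and SMAD proteins of TGF-beta signalling and the adipocyte regulator PPARG. Members are known from somatic cells such as endothelium, where miR-130a promotes the growth of vessels, and from tumours, where miR-301a and miR-130b are often abundant. Spermatozoa carry little RNA and do not transcribe their genome, so that their miRNAs are either left from the testis or taken up on the way through the epididymis.

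Levels are given as normalized counts, which are CPM (reads scaled to a common library size) divided by a normalization factor for each library. Depth here means the reads counted on miRNAs in a library, not all reads sequenced. It ranged from 103204 reads for HF bull 17 to 3097581 for HF bull 2. LF bull 11 had the second lowest depth with 310186 reads. A count of 3 reads, taken as the floor, equals a normalized count of 1.19 in the deepest and of 27.6 in the shallowest library. Germ cell miRNAs that mark spermatozoa (miR-34b, miR-34c and miR-449a to miR-449c, 5 of 5 measured) summed to 32093 to 77203 in HF bulls and to 25829 to 54584 in LF bulls. Leukocyte miRNAs (4 of 4 measured) summed to 53.7 to 208 in HF and 39.1 to 284 in LF bulls, and red cell miRNAs (2 of 2) to 7.56 to 49.7 and 5.41 to 53.3. Epithelial miRNAs (6 of 6) summed to 6544 to 13138 in HF and 9680 to 15554 in LF bulls, and muscle miRNAs (4 of 4) to 46.0 to 145 and 17.1 to 141. No marker was at 0 in every library. In the paper, RT-PCR of the sperm RNA gave no product of PTPRC (leukocytes), CDH1 (epithelium) or KIT (other germ cells). The part of other cells in the levels of the family was not tested here, and in such bulk samples fewer cells of a type and less RNA per cell cannot be told apart.

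The family was a minor part of the miRNAs counted in spermatozoa and was carried almost wholly by bta-miR-130b. Together the 5 members had 1569 reads in the 20 libraries, and on average 0.00701% ± 0.00166 (SD, n = 20) of the miRNA reads of a bull. bta-miR-130b gave 90.4% of these reads, bta-miR-301a 4.72%, bta-miR-130a 4.46%, bta-miR-301b 0.319% and bta-miR-454 0.127%. In each of the 20 bulls bta-miR-130b had more reads than the other members together. Its share of the family's reads within a bull was 90.1% ± 6.12 (SD, n = 20). It ranged from 71.4% in LF bull 13, with 20 reads of bta-miR-130b, to the whole in LF bull 11, with 18. Both libraries were among the shallowest. The share was 89.3% ± 2.98 in HF bulls and 90.9% ± 8.28 in LF bulls (SD, n = 10 each). The summed level of the members was 73.2 ± 18.9 in HF and 66.8 ± 12.0 in LF bulls (SD, n = 10 each). The difference of 6.43 was not tested, and the SDs give the spread between bulls and not its uncertainty.

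**Figure D1:**
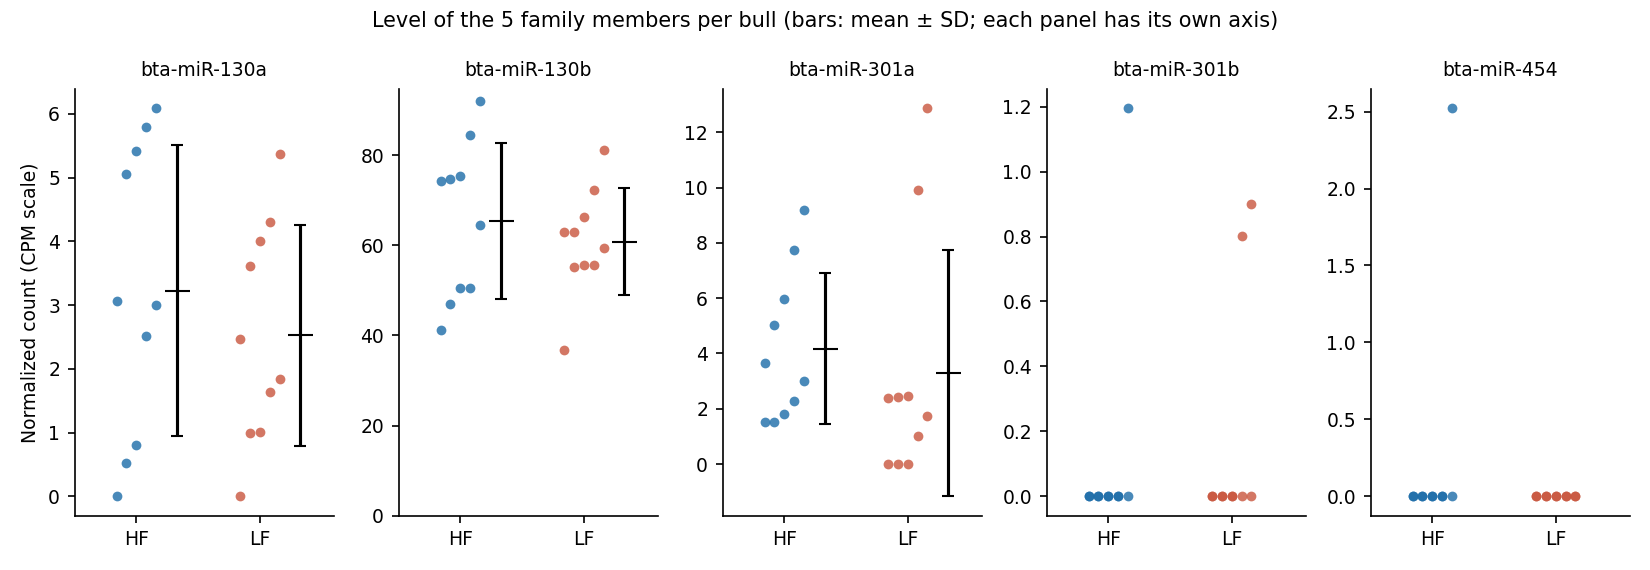
Normalized count (CPM scale, vertical axes, a separate range for each panel) of the 5 members in each of the 10 HF and 10 LF bulls, with 1 point per bull; for bta-miR-130a, bta-miR-130b and bta-miR-301a the bar beside the points is the mean ± SD. The groups overlap in every panel, bta-miR-130b lies between 36.8 and 91.9 in all 20 bulls, and most points of bta-miR-301b and bta-miR-454 are at 0.

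bta-miR-130b was detected in all 20 libraries. In the HF bulls its normalized count was 41.3 at the lowest, 69.4 at the median and 91.9 at the highest. In the LF bulls it was 36.8, 61.2 and 81.1. The 2 ranges overlapped over most of their length, with 2 HF bulls above every LF bull and 0 below every LF bull. The mean was 65.4 ± 17.3 in HF and 60.8 ± 11.8 in LF bulls (SD, n = 10 each), and over all bulls bta-miR-130b had rank 183 of the 1029 miRNAs by mean level.

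Counting error did not cover the whole range of bta-miR-130b within the HF group, since HF bull 12 was at 41.3 with 79 reads (95% Poisson interval 32.7 to 51.5) and HF bull 14 at 84.4 with 111 reads (69.4 to 101.7). The highest value, 91.9 in HF bull 17, stood on 10 reads and had an interval of 44.1 to 169. The lowest value, 36.8 in LF bull 13, stood on 20 reads with an interval of 22.5 to 56.8. These intervals are exact and cover counting error only. Around the reads expected in each library at the pooled level, the variance was 3.08 times that of counting error alone over all bulls. It was 4.60 times in HF and 1.84 times in LF bulls, each with the pooled level of its group. With equal weight for each bull, counting error made up 48.8% of the variance of the level over all bulls. The library of HF bull 17, with 10 reads, added more to this share than any other. The share therefore does not describe the deeper libraries.

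The spread of bta-miR-130b between bulls was below that of most miRNAs compared, nearly all of which had higher levels. Its coefficient of variation was 23.1%, against a median of 31.3% over the 158 miRNAs with at least 10 reads in every bull. Counted from the least variable, it had place 40 of these 158, and by level, counted from the highest, place 154. It stood in this set on exactly 10 reads in HF bull 17, where its level was highest. Across the 20 bulls the level of bta-miR-130b and the log10 of the depth gave a Pearson r of -0.094 (permutation p = 0.71) and a Spearman rho of 0.048 (permutation p = 0.84), as the only relation tested of this kind. Without HF bull 17 and LF bull 11 r was 0.25, and within groups it was -0.34 in HF and 0.49 in LF bulls. The sign of r thus changed with the bulls included.

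**Figure D2:**
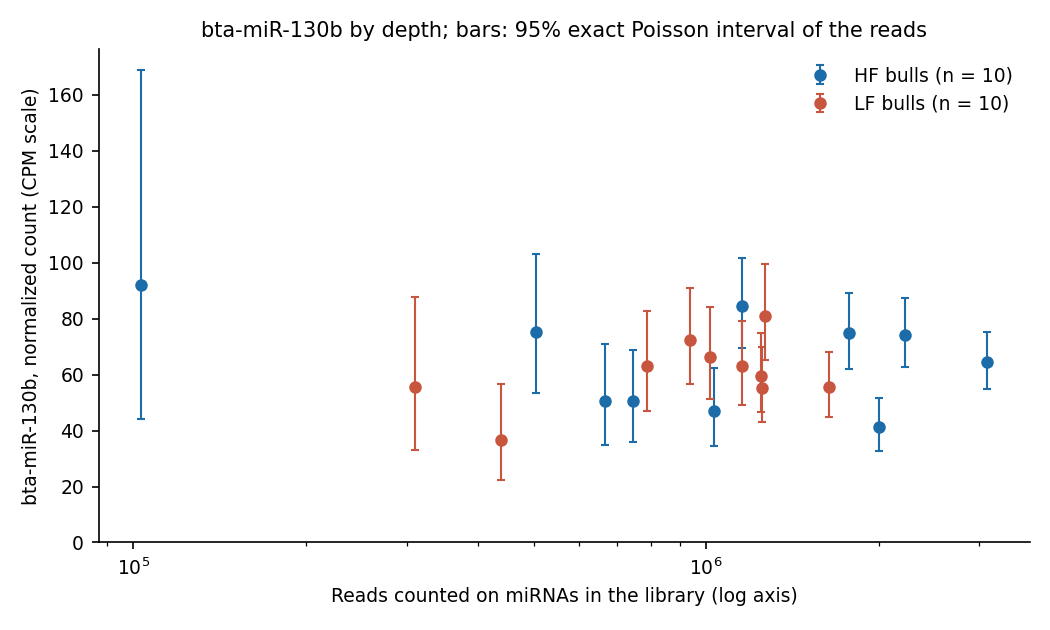
Normalized count of bta-miR-130b (vertical axis, CPM scale) against the reads counted on miRNAs in the library (horizontal log axis). Each bull is 1 point in the colour of its group, with the exact 95% Poisson interval as a bar. HF bull 17, at the left with 103204 reads, has the highest level and the widest interval.

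bta-miR-301a was the second member by mean level, with 74 reads in all and at most 15 in a library. It had at least 1 read in 10 of 10 HF bulls and in 7 of 10 LF bulls. On these counts a two-sided Fisher's exact test gave p = 0.21, and 1.0 after adjustment over the 5 members. Only 12 libraries held 3 reads or more of bta-miR-301a, the floor. In the HF bulls the normalized count of bta-miR-301a was 1.52 at the lowest, 3.33 at the median and 9.19 at the highest. In the LF bulls it was 0, 2.06 and 12.9. The LF range thus enclosed the HF range, and both the lowest and the highest bulls were LF.

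The LF bulls were uneven in bta-miR-301a. LF bull 13 had 7 reads and a level of 12.9, and LF bull 1 had 11 reads and a level of 9.91, whereas the other 8 lay between 0 and 2.47. Among the LF bulls without a read, 3.33 reads in LF bull 4, 4.23 in LF bull 8 and 0.993 in LF bull 11 correspond to the pooled level of the other LF bulls at their depth. Of the 30 LF reads, however, 18 were from LF bulls 1 and 13. Without these 2 bulls the values are 1.63, 2.08 and 0.478 reads, all under the floor of 3 reads, so that a level like that of the remaining LF bulls could not be told from 0 in them. Around the reads expected in each library at the pooled level of its group, the variance was 5.10 times that of counting error alone in LF bulls. In HF bulls it was 1.49 times. The value of HF bull 17, 9.19, was a single read. Means were 4.17 ± 2.72 in HF and 3.28 ± 4.45 in LF bulls (SD, n = 10 each).

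bta-miR-130a had 70 reads in all and at most 10 in a library. It had at least 1 read in 18 of the 20 libraries, 9 in each group. Only 9 libraries held 3 reads or more, the floor. The 2 libraries without a read were the shallowest, HF bull 17 and LF bull 11. The pooled level of the other bulls of their group corresponds to 0.353 and 0.993 reads at their depth, so that its absence could not have been told from a level like that of the other bulls. In the HF bulls the normalized count was 0 at the lowest, 3.03 at the median and 6.08 at the highest, and in the LF bulls it was 0, 2.15 and 5.37. Here too the groups overlapped over nearly their whole range. Means were 3.23 ± 2.29 in HF and 2.52 ± 1.73 in LF bulls (SD, n = 10 each). Around the reads expected in each library at the pooled level of its group, the variance was 1.02 times that of counting error alone in LF bulls. In HF bulls it was 2.05 times.

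bta-miR-301b and bta-miR-454 were close to absent at this depth. bta-miR-301b had 5 reads in 3 libraries, 3 of them in HF bull 2 (level 1.19), 1 in LF bull 1 (0.901) and 1 in LF bull 8 (0.801). bta-miR-454 had 2 reads, both in HF bull 3 (level 2.52), and 0 in the other 19 libraries. Neither passed the filter on low values, and no fold change is given for them since both groups were at or under the floor in every library.

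Neighbours in the observed order of mean levels were compared within bulls. bta-miR-130b exceeded bta-miR-301a in 20 of 20 bulls, with a mean difference of 4.12 ± 1.17 (SD, n = 20) in log2(normalized count + 1). The permutation test over bulls gave p = 2e-05, the smallest it can give, and 8e-05 after adjustment over the 4 pairs. The order was taken from these same bulls, so that this p is no independent check of it. bta-miR-301a was above bta-miR-130a in 8 bulls, below it in 8 and equal in 4, a mean difference of 0.13 ± 1.41 (permutation p = 0.69, adjusted p = 0.75). Their order was therefore not resolved, and by the median over bulls bta-miR-130a came first. bta-miR-130a was above bta-miR-301b in 17 bulls and below it in 1. Since bta-miR-301b was at 0 in 17 libraries, this count says little more than where bta-miR-130a had a read, and no test is given for it. bta-miR-301b and bta-miR-454 were equal in 16 bulls, at 0 in both, and cannot be ordered.

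**Figure D3:**
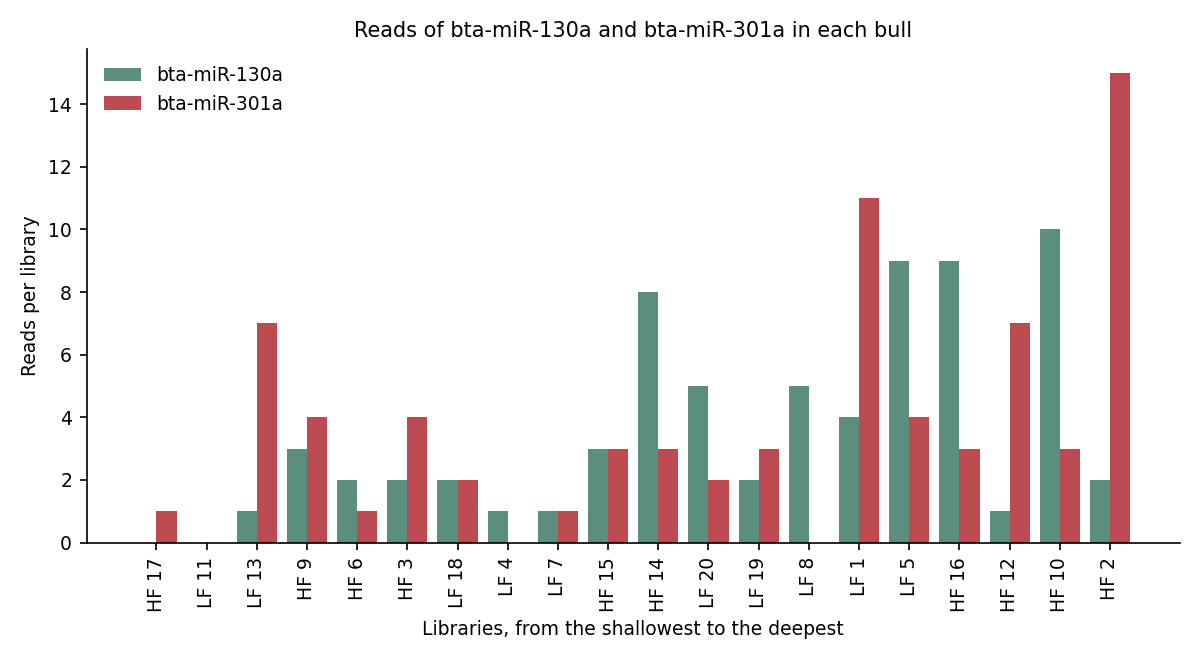
Recovered whole reads of bta-miR-130a and bta-miR-301a in each of the 20 libraries, ordered by depth from the shallowest to the deepest. No library has more than 10 reads of bta-miR-130a or 15 of bta-miR-301a, and LF bulls 4 and 8 have 0 reads of bta-miR-301a although other libraries of less depth have some.

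Members whose genes are neighbours differed widely in their mature levels. In the RefSeq annotation of the bovine assembly ARS-UCD2.0, MIR130B and MIR301B are adjacent with 0 genes between them. MIR301A and MIR454 are likewise adjacent, and both lie within the span of SKA2, which encodes a protein of the spindle and kinetochore complex. MIR130A stands apart, with 19 genes between it and the nearest other miRNA gene. The study aligned its reads to an earlier assembly, so that positions are not given here.

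bta-miR-130b had 1418 reads against 5 of bta-miR-301b, a ratio of 284 with an exact 95% interval of 121 to 875 for counting error. HF bull 2 held 3 of the 5 reads of bta-miR-301b, and without it the ratio was 628 (1256 against 2 reads, interval 173 to 5191). In single libraries bta-miR-130b was between 3.33-fold and 54.0-fold above the floor of 3 reads, with a median of 23.7-fold. bta-miR-301a had 74 reads against 2 of bta-miR-454, a ratio of 37.0 with an interval of 9.89 to 311. Both reads of bta-miR-454 were from HF bull 3, and without it bta-miR-301a had 70 reads against 0, at least 23.3-fold more when the floor of 3 reads is taken over all libraries. The log2 ratio of bta-miR-130b to bta-miR-301b, with a pseudocount of 1, was 5.89 ± 0.52 in HF and 5.75 ± 0.40 in LF bulls (SD, n = 10 each), and the difference of 0.15 did not pass the permutation test (p = 0.48, adjusted p = 0.48 over the 2 ratios). For bta-miR-301a and bta-miR-454 the log2 ratio was 2.02 ± 0.85 in HF and 1.5 ± 1.35 in LF bulls, a difference of 0.51 (permutation p = 0.32, adjusted p = 0.48). With so few reads of bta-miR-301b and bta-miR-454, these ratios follow mainly the abundant partner. How reads that match more than 1 member were shared out in the counting was not tested.

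The comparison of HF with LF bulls asked whether the members differ with field fertility. Of the 5 members, 3 passed the filter on low values (bta-miR-130a, bta-miR-130b and bta-miR-301a), and 0 of the 3 were called at an adjusted p under 0.05 by limma when p-values were adjusted (Benjamini-Hochberg) over all 435 miRNAs of the fit. Over all 435 the share called was 0%. At an unadjusted p under 0.05, 0 of the 3 members were called against 3.45% of all (15 miRNAs), and with a fold change over 1.5 in addition 0 of 3 against 2.07% (9 miRNAs). The edgeR quasi-likelihood test, the edgeR likelihood ratio test and DESeq2 on the recovered reads also called 0 miRNAs after adjustment, and 18, 16 and 18 at an unadjusted p under 0.05.

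The log2 fold change of HF over LF, on the log2(normalized count + 1) scale, was 0.084 for bta-miR-130b (SE 0.19, 95% interval -0.30 to 0.47, limma adjusted p = 0.96). For bta-miR-130a it was 0.19 (SE 0.42, 95% interval -0.67 to 1.05, limma adjusted p = 0.96). bta-miR-301a had the largest value of the 3, 0.69 (SE 0.47, 95% interval -0.28 to 1.67, limma unadjusted p = 0.15, adjusted p = 0.94). The interval of bta-miR-130b excludes a change of 1.5-fold in either direction on this scale, whereas those of bta-miR-130a and bta-miR-301a leave room for larger differences. All 3 values were above 0, with a median of 0.19, against 50.1% of the 435 miRNAs with a value above 0 and a median of 0.0051. By p-value bta-miR-301a had place 62, bta-miR-130b place 295 and bta-miR-130a place 296 of 435.

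The value of bta-miR-301a depended on how few reads were treated. It was 0.23 by the edgeR quasi-likelihood test (p = 0.70, no adjustment), 0.95 with a pseudocount of 0.5 and 0.24 with a pseudocount of 5. Without LF bull 13 it was 0.95 (limma unadjusted p = 0.041), and without the 2 shallowest libraries 0.40 (limma unadjusted p = 0.40). The adjusted p of bta-miR-301a was 0.83 or higher in all 29 fits. For bta-miR-130a the value was 0.39 without HF bull 17 and 0.0054 without LF bull 11, which are the 2 libraries without a read of it.

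**Figure D4:**
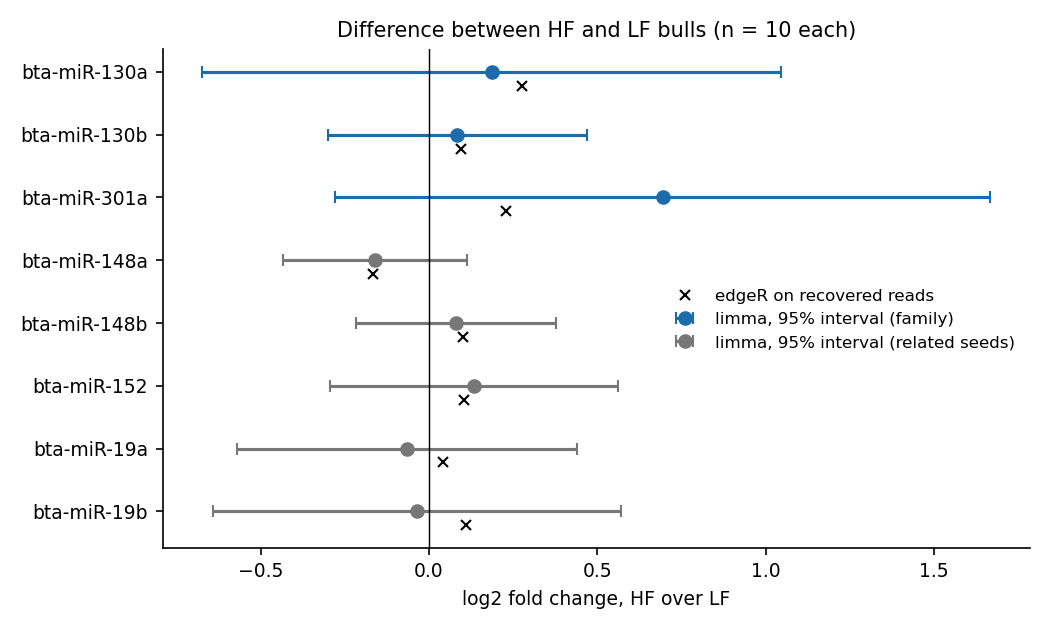
Log2 fold change of HF over LF (horizontal axis) of the 3 members that passed the filter and of 5 miRNAs with related seeds, from limma on log2(normalized count + 1), with 95% intervals as bars. Every interval includes 0, and that of bta-miR-301a, from -0.28 to 1.67, is the widest.

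miRNAs with overlapping seeds were far more abundant than the family. The seeds of the miR-148 and miR-152 family and of miR-19 match most of the family's seed when shifted by a base, and these miRNAs act in DNA methylation and growth control among other processes. bta-miR-148a had a normalized count of 16841 ± 2703 in HF and 19047 ± 4178 in LF bulls (SD, n = 10 each), which made it number 10 of all miRNAs by level. bta-miR-148b followed with 2837 ± 513 and 2691 ± 518, and bta-miR-152 with 638 ± 163 and 603 ± 231. bta-miR-19a was at 678 ± 300 in HF and 679 ± 215 in LF bulls, and bta-miR-19b at 399 ± 240 and 383 ± 147. The least abundant of the 5, bta-miR-19b, thus had a mean several-fold above that of bta-miR-130b.

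Of these 5 miRNAs, 0 were called by limma in either direction. Their log2 fold changes of HF over LF were -0.16 for bta-miR-148a (SE 0.13, 95% interval -0.43 to 0.11), 0.080 for bta-miR-148b (SE 0.14) and 0.13 for bta-miR-152 (SE 0.21). For bta-miR-19a and bta-miR-19b they were -0.064 (SE 0.24) and -0.036 (SE 0.29), and the sign of these last values changed with the test or the bulls included.

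Only bta-miR-130b had enough reads for its pattern across bulls to be compared with other miRNAs. Of 157 miRNAs with at least 10 reads in every bull, bta-miR-6526 was most like it, with a Spearman rho of 0.67 over the 20 bulls on log2(normalized count + 1), and 0.73 within HF and 0.66 within LF bulls. bta-miR-2285bo (rho 0.62) and bta-miR-2284aa (rho 0.61) followed. The median rho over the 157 was 0.032 and the lowest -0.68. These values are descriptions, since the miRNAs were measured in the same libraries and share their scaling, and the depth of bta-miR-130b, between 10 and 162 reads per library, limits them. The named miRNAs were also picked as the highest of the 157 in these same bulls, which favours high values. The values within HF and LF come from the bulls used for the choice and are no separate check.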

How the data were processed

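Per the labels and the study's methods, total RNA of spermatozoa was made into small RNA libraries. The authors clipped adapters with Cutadapt, kept reads within a length window, removed other short RNAs, used Bowtie to align to assembly ARS-UCD1.2 and counted mature miRBase miRNAs with miRDeep2. The deposited signal is on the CPM scale, where the authors had scaled each count by library size and by edgeR's TMM factor.

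Every value was divided by that of a single read in its library. Of the values above 0, 95.0% came out whole within 0.01 read, as did every member value. Recovered reads were rounded for the count tests. The filter dropped a miRNA whose normalized count fell below 1 in 10 or more bulls and kept 435. HF and LF bulls were compared with limma 3.58.1 (variance trend, R 4.3.3) on log2(normalized count + 1) with Benjamini-Hochberg adjustment. edgeR 4.0.16 and DESeq2 1.42.0, other pseudocounts, scalings and filters, and leaving out each bull were alternatives. Leaving out both shallowest libraries, and the bulls with most reads of a scarce member, was added after seeing the data. Permutation tests were two-sided with 100000 resamples (scipy 1.17.1, numpy 2.4.6). Depth limits rare miRNAs. Scripts were tested on simulated data.

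The members and lists were chosen with earlier results of these data known. Named were the 5 members, the 5 miRNAs with related seeds and the 3 miRNAs most like bta-miR-130b. Mature sequences were not used here, so that seeds were not searched. Where nothing else is stated, bulls are the replicates.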

Additional observations from a re-analysis of the deposited data

Results flagged for a closer look

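In 21 groups of 10 bulls the gap of the highest or lowest bull to the next was set against the range of the group, with Dixon's critical value for 10 values as the limit. Chance exceeds this limit in about 1 in 20 groups. For bta-miR-301b the gap was 1.0 of the range, since HF bull 2 with 3 reads was the only HF bull with any. For bta-miR-454 it was likewise 1.0, with the 2 reads of HF bull 3. In both groups the other 9 bulls were at 0, which gives a gap of 1.0 by construction, so that these values say nothing of an unusual bull. In 1 further group the limit was exceeded, as the summed level of the members was 95.5 in LF bull 1 and 73.4 in the next LF bull, a gap of 0.503 of the range. Without LF bull 1 the difference of HF minus LF in the summed level was 9.62 in place of 6.43.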

How the results depend on the processing

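The log2 fold changes of bta-miR-130a, bta-miR-130b and bta-miR-301a kept a value above 0 under every alternative that could be run, and 0 of them had an adjusted p under 0.05. A filter of at least 10 reads in every bull left no value for bta-miR-130a and bta-miR-301a. For bta-miR-130b the range was 0.014 (without both shallowest libraries) to 0.094, and 0.0080 (without LF bull 13) to 0.15 (without HF bull 12) when each bull was left out. For bta-miR-19a the sign turned with the edgeR quasi-likelihood and likelihood ratio tests (0.043 in both), and leaving out each bull gave -0.18 to 0.075. For bta-miR-19b it turned with the same tests (0.11 in both) and with DESeq2 (0.049), and leaving out each bull gave -0.20 to 0.084. The log2 ratio of bta-miR-301a to bta-miR-130a was 0.37 from the mean levels, -0.19 from the medians and 0.080 from pooled reads. The count of all miRNAs with an unadjusted p under 0.05 and a fold change over 1.5 was 9, and 4 with a pseudocount of 5, 15 without a filter and 0 with at least 10 reads in every bull. It ranged from 7 to 15 when each bull was left out. The count at an unadjusted p under 0.05 alone, 15, was 23 without a filter and 5 with at least 10 reads in every bull. The difference in the summed level, 6.43, was 3.33 without HF bull 17 and 9.62 without LF bull 1. The causes were not tested, except that the filters change how many miRNAs are tested. No paired analysis was possible because HF and LF bulls are different animals with no stated pairing. At 3 reads the floor is 27.6 in the shallowest library, above every level of bta-miR-130a and bta-miR-301a.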
